A study of Mus musculus with 18 samples.

Results

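H3K27ac and H3K4me3 were compared within the Mettl3_Control genotype of mouse embryonic stem cells, using the 4 Control chromatin immunoprecipitation libraries (2 for each mark) of the 18 samples in the series. The other samples are the same 2 marks in the Mettl3 knockout lines KO1 and KO2, and 6 input chromatin samples that were not analysed here. The Control cells are of the C57BL/6 strain, as are the knockout cells. They were grown in serum-containing medium with LIF at 1000 U/ml, 3 µM CHIR99021, an inhibitor of GSK3, and 1 µM PD0325901, an inhibitor of MEK. All cells were fixed with 1% formaldehyde, and spike-in chromatin with its own antibody was added to each precipitation. The labels do not say whether the Control is 1 clone, how the knockout was made, or whether replicates came from separate cultures.

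A region of a mark was kept where peaks of both of its libraries overlapped by at least 1 bp. This gave 21228 H3K27ac regions and 50148 H3K4me3 regions. Overlapping regions of the 2 marks were merged into 15598 regions with both marks. A region that met no peak of the other mark in either library had 1 mark only: there were 771 H3K27ac-only and 28951 H3K4me3-only regions. The remaining 1397 H3K27ac and 5040 H3K4me3 regions met a peak of the other mark in 1 library only and are called unsettled. The total was 51757 regions, against 47240 in KO1 and 52806 in KO2 by the same rule.

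H3K27ac is acetylation of lysine 27 of histone H3, placed mainly by the acetyltransferases Ep300 and Crebbp, and is found at active promoters and active enhancers. H3K4me3 is trimethylation of lysine 4 of the same histone, placed by Set1 and MLL complexes, and is strongest just downstream of the start of genes whose promoters are rich in CG dinucleotides. In embryonic stem cells H3K4me3 is also known at the CG-rich promoters of silent developmental regulators, where it lies together with Polycomb marks, which were not measured here.

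The sequences below show the kinds of promoter behind the classes: 2 naive pluripotency genes with both marks, 2 Hox genes with H3K4me3 only and 2 liver genes with neither. Each runs 5′ to 3′ on the gene's strand, from 250 bases before to 50 after the start, from RefSeq on GRCm38.p6, with CG dinucleotides in capitals.
Pou5f1 (chr17:35505782-35506081, + strand, 11 CG): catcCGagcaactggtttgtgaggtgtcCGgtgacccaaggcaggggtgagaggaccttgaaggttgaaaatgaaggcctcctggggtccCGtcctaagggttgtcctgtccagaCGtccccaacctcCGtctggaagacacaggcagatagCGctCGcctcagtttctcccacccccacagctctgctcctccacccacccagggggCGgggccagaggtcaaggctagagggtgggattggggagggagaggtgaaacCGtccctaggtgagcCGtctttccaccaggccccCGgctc
Sox2 (chr3:34649745-34650044, + strand, 27 CG): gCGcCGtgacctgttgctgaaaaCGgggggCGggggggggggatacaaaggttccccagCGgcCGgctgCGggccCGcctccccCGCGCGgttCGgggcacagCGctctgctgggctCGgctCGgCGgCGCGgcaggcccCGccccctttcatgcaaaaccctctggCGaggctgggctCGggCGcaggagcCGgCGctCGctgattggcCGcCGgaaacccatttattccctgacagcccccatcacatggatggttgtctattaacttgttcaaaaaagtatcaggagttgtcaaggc
Hoxa5 (chr6:52204538-52204837, - strand, 29 CG): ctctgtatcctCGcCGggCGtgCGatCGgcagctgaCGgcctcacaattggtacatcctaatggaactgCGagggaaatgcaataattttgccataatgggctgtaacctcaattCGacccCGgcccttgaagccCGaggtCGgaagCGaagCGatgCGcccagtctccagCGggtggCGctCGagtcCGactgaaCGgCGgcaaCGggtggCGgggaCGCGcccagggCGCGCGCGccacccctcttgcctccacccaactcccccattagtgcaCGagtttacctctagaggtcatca
Hoxa13 (chr6:52260831-52261130, - strand, 45 CG): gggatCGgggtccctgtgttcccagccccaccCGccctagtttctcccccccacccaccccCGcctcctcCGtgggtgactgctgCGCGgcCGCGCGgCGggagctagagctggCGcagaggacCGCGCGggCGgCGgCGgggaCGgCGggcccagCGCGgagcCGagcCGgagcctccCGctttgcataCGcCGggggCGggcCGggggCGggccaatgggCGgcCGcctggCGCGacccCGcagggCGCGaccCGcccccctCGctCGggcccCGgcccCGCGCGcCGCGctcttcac
Alb (chr5:90460620-90460919, + strand, 3 CG): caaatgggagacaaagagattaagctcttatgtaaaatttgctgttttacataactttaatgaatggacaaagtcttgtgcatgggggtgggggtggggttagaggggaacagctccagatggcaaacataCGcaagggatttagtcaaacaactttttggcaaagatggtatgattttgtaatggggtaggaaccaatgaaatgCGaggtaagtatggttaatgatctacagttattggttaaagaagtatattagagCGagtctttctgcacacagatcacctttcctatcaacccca
Afp (chr5:90490464-90490763, + strand, 3 CG): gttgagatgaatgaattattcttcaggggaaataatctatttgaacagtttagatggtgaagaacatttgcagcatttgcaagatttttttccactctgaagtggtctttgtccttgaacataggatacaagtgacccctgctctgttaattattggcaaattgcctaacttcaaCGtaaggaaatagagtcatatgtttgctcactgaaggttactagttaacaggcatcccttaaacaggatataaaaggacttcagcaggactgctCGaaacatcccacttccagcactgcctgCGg
Pou5f1 had H3K27ac peaks over 85.4% and 85.8% of the window reaching 2 kb to each side of its start, the measure called coverage from here on, and H3K4me3 over 98.4% and 100.0%. Both Hox promoters hold more CG dinucleotides than that of Pou5f1, yet no H3K27ac peak lay within 2 kb of either start. Their H3K4me3 coverage was 25.3% and 25.4% at Hoxa5, and 16.4% and 27% at Hoxa13. At Alb and Afp, which encode albumin and alpha-fetoprotein, all 4 values were 0.

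The H3K27ac lists held 29966 and 32948 peaks on chromosomes 1 to 19, X and Y, and the H3K4me3 lists 83628 and 81590. Peaks covered 14.4 and 14.6 Mb for H3K27ac and 58.2 and 56.3 Mb for H3K4me3. Between 71.8% and 77.3% of the peaks of a list lay in regions shared by its 2 libraries. Chromosome 8 held 5.94% to 6.28% of the peaks of the Control lists and 4.99% to 5.32% of those of the knockout lists. Leaving it out moved neither a count of regions nor a count of genes past 1.5 times. A share of this size could hardly move any but the smallest counts that far, so this says little. Read totals were not given in the lists, so a missing peak means only that none passed the authors' threshold at the depth of that library.

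The labelled cell type was checked against marker genes. Of 15 naive stem cell markers, 12 had both marks at the start and 3, namely Esrrb, Prdm14 and Dppa3, had H3K4me3 only. The summed H3K27ac coverage at these markers was 771% and 796% in the 2 libraries. It was 0 in both libraries for the 10 feeder fibroblast markers, among them Col1a1 and Thy1, and for the 8 primitive endoderm and 8 trophectoderm markers. Of the last 2 lists, 6 genes each had H3K4me3 only, such as Gata6, Sox17, Cdx2 and Eomes. The summed H3K4me3 coverage was 1150% and 1170% at the stem cell markers and 11.5% and 4.25% at the feeder markers.

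Nearly every H3K27ac region carried H3K4me3, while most H3K4me3 regions lacked H3K27ac. Of the 21228 H3K27ac regions, 19060 (89.8%, 95% Wilson interval 89.4 to 90.2%) met an H3K4me3 region. Of the 50148 H3K4me3 regions, 16157 (32.2%, 31.8 to 32.6%) met an H3K27ac region. These intervals cover counting error only. Of the bases in H3K27ac regions 88.0% lay inside H3K4me3, and of the bases in H3K4me3 regions 21.9% lay inside H3K27ac. Of the H3K27ac regions with H3K4me3, 13541 (71.0%) lay wholly inside it, and 62 (0.325%) overlapped it by under 100 bp. The acetylated stretch was in most cases nested in the methylated one.

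The share depended on position. Within 1 kb of a protein-coding gene start 99.4% of the H3K27ac regions carried H3K4me3, in gene bodies 88.1%, and between genes 79.7%. The order for H3K4me3 was different: H3K27ac was present at 42.4% of its regions at gene starts, 16.8% in gene bodies and 53.1% between genes. The shares also depended on list length. When each list was limited to its 29966 peaks of lowest p, the length of the shortest list, 97.5% of the H3K27ac regions at starts and 52.3% of those elsewhere carried H3K4me3. H3K27ac was then present at 51.0% of the H3K4me3 regions at starts and 52.7% of those elsewhere. The high share of H3K27ac regions with H3K4me3 away from starts thus rested on H3K4me3 peaks outside the strongest 29966 of each list, whereas at starts it did not.

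**Figure D1:**
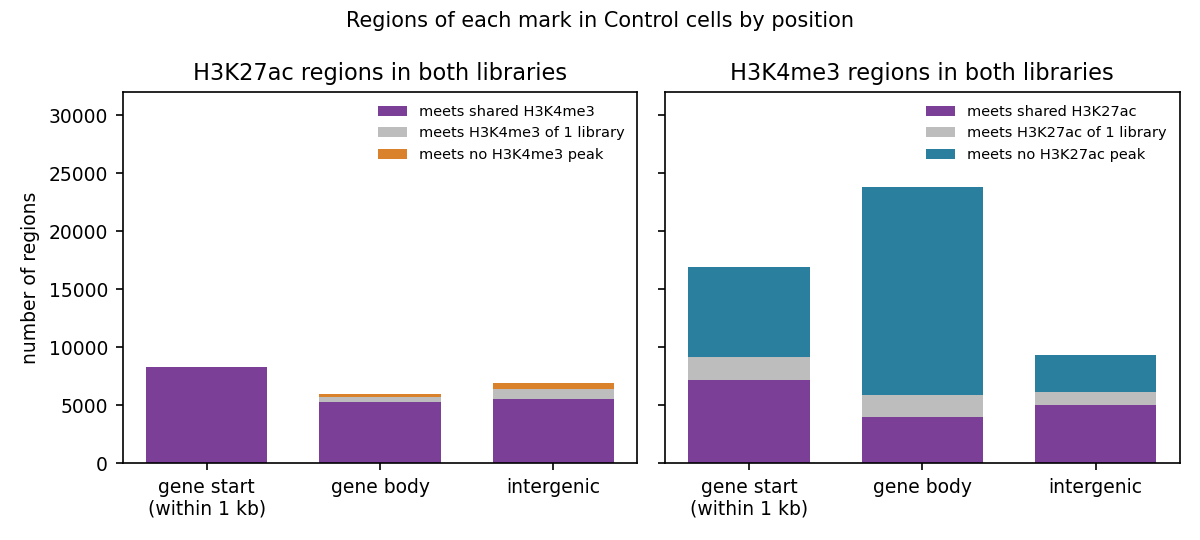
Number of regions found in both libraries of H3K27ac (left) or H3K4me3 (right) in Control cells, by position, with the part that meets the other mark in both libraries (purple), in 1 library (grey) or in neither (orange or blue). H3K27ac-only regions form a thin band, absent to the eye at gene starts, while 17957 H3K4me3 regions in gene bodies meet no H3K27ac peak.

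Regions with both marks are unions of overlapping regions of each mark, so their width follows in part from the merging. Their median width was 1371 bp, against 565 bp for the H3K27ac and 1243 bp for the H3K4me3 regions merged into them. They covered 32.0 Mb, and 7165 (45.9%) lay at a gene start, 3786 (24.3%) in gene bodies and 4647 (29.8%) between genes. In all, 6142 (39.4%) lay over 10 kb from any protein-coding start. Of those away from protein-coding starts 4.51% lay at the start of a non-coding gene. The 4 regions with the highest mean rank over the 4 lists lay at the starts of Brpf1, a scaffold of a histone acetyltransferase complex, Ewsr1, an RNA-binding protein, Ywhae, a 14-3-3 adaptor, and Usp48, a deubiquitinase. At Brpf1 (chr6:113306744-113310311) the authors' fold enrichment reached 27 and 37.1 for H3K27ac and 30.9 and 34.6 for H3K4me3. The widest region, 32123 bp, lay at Gpbp1 (chr13:111457751-111489873). In it H3K4me3 peaks covered 31870 and 31643 bp and H3K27ac peaks 1248 and 1412 bp. Next came 31369 bp at Tet1, which encodes a 5-methylcytosine oxidase of embryonic stem cells (chr10:62866440-62897808). There H3K4me3 covered 30746 and 31128 bp and H3K27ac 6320 and 7166 bp.

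The same class included microRNA genes of stem cells. Of 1003 microRNA hairpins, 93 (9.27%) lay in a region with both marks, 45 (4.49%) in an H3K4me3-only region and 0 in an H3K27ac-only region. In that order the classes covered 32.0, 22.8 and 0.289 Mb, so the counts are not on a common scale. A seed shared by 4 mature microRNAs of 2 regions with both marks is shown, since these families are known as microRNAs of embryonic stem cells. The mature sequences are from RefSeq on GRCm38.p6, with the seed (bases 2 to 8) in capitals.
mmu-miR-302b-3p (chr3:127545275-127545297, + strand): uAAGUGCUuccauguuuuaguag
mmu-miR-302d-3p (chr3:127545665-127545687, + strand): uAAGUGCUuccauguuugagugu
mmu-miR-294-3p (chr7:3220691-3220712, + strand): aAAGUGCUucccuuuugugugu
mmu-miR-295-3p (chr7:3220815-3220837, + strand): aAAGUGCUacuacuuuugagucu
The Mir302 region (chr3:127545071-127546486) had H3K27ac over 27.8% and 34.5% of its length and H3K4me3 over 72.0% and 97.2%. The region of Mir294 and Mir295 (chr7:3217777-3220924) had H3K27ac over 55.9% and 61.2% and H3K4me3 over 100.0% and 98.6%. All 4 values of the second region were above those of the first.

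H3K27ac-only regions were few, narrow and mostly far from gene starts. The 771 regions covered 0.289 Mb with a median width of 341 bp. Of them 16 (2.08%) lay at a gene start, 249 (32.3%) in gene bodies and 506 (65.6%) between genes, and 617 (80.0%) lay over 10 kb from a start. They often bordered H3K4me3: 415 (53.8%) had an H3K4me3 peak within 500 bp, and 120 lay over 10 kb from any. The strongest by rank lay 53 bp from the start of Nr6a1, which encodes the orphan nuclear receptor GCNF (chr2:38926514-38926717), with folds of 6.82 and 8.41. Another lay 84978 bp from Tbx3, a transcription factor of naive cells (chr5:119585268-119585556), with folds of 6.41 and 6.38. The others of the first 4 lay 13734 bp from Skor1 and 46757 bp from Ythdc1, a nuclear reader of m6A. The widest, 946 bp, lay inside Ube2h, which encodes a ubiquitin-conjugating enzyme (chr6:30269362-30270307). A nearest gene is a position and names no target. The number of these regions depended on the lists: it was 3930 at equal list length, and 1369 to 3690 when 1 of the 4 libraries was left out and a peak in the other library of that mark was enough.

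H3K4me3-only regions were many and, with the full lists, lay mainly in gene bodies. They covered 22.8 Mb with a median width of 569 bp. Their number was 8104 at equal list length, and 55845 without the first and 57800 without the second H3K4me3 library, when 1 peak was enough. Of those from the full lists, 7787 (26.9%) lay at a gene start, 17957 (62.0%) in gene bodies and 3207 (11.1%) between genes. At equal list length, 35.9% of 13514 H3K4me3 regions at starts and 37.8% of 8629 elsewhere had H3K4me3 only. More of the H3K4me3-only regions then lay at starts than elsewhere, so their position also depended on list length. The strongest lay 1049 bp from the start of Ubb, a polyubiquitin gene (chr11:62552780-62555154), with folds of 31.4 and 23.2. The start of Ubb itself had both marks, with H3K27ac coverage of 45.0% and 45.4%. The next lay at the starts of Cog2, Smg8 and Ogfod1, with folds of 17.9 to 24.3. The widest was a 35868 bp domain inside Rybp (chr6:100232614-100268481), which encodes a subunit of a variant Polycomb complex. H3K4me3 peaks covered 34984 and 35807 bp of it, and no H3K27ac peak met it, although the end of Rybp used as its start had both marks.

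The gene-body regions lay mostly in genes whose start carried both marks. Of 17745 H3K4me3-only regions centred in 1 gene, 13447 (75.8%) were in such genes, which hold 29.0% of the summed gene length. That is 44.2 regions per Mb, against 5.64 in genes with H3K4me3 only at the start and 3.68 in genes with neither mark. The median region in a gene with both marks lay 12.1 kb downstream of the start, and 40.3% lay within 10 kb. At least 1 such region was present in 3084 (45.8%) of the genes with both marks, so the genes contributed unequally.

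The authors' fold enrichment, which can be compared only within a list, was highest where both marks met at a gene start. For H3K4me3 the median fold of peaks was 15.0 and 14.5 in regions with both marks at starts and 6.34 and 6.21 in those away from starts. It was 7.49 and 7.31 in H3K4me3-only regions at starts, 4.99 and 5.07 in those away from starts, and 4.28 and 4.38 for peaks that only 1 library had. For H3K27ac the range was smaller. The median fold was 6.80 and 7.46 with both marks at starts, 5.80 and 6.10 with both marks away from starts, and 4.59 and 4.87 in H3K27ac-only regions. The last values were close to the 4.61 and 4.88 of H3K27ac peaks found in 1 library only. The median H3K4me3 peak with both marks at starts was 1379 and 1309 bp wide, against 538 and 518 bp with H3K4me3 only at starts. H3K27ac peaks with both marks were 409 and 412 bp wide at starts, and 466 and 433 bp away from starts, where their fold was lower.

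**Figure D2:**
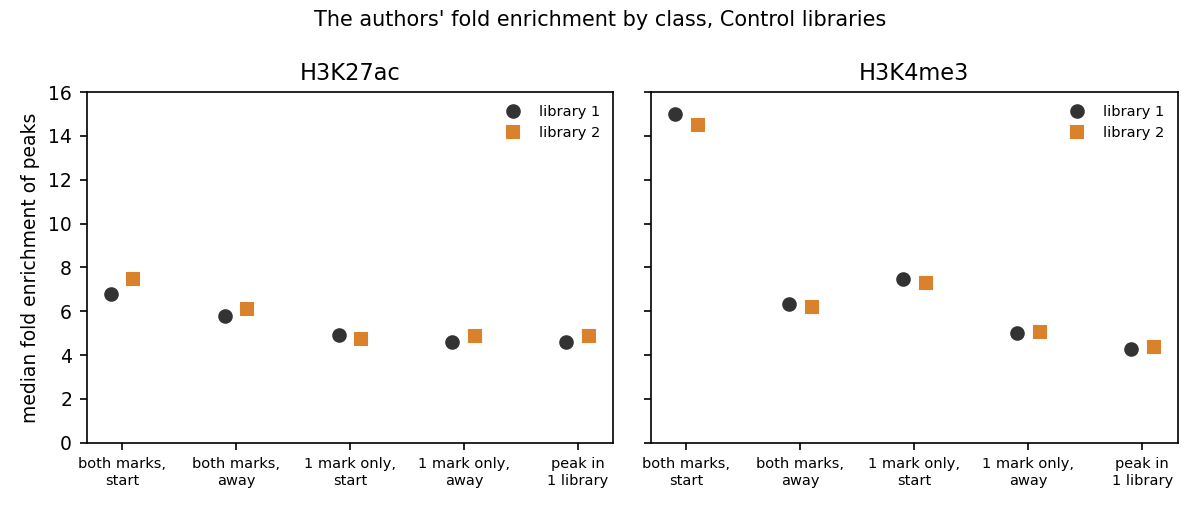
Median of the authors' fold enrichment of peaks (y axis, from 0) by class and position, for each Control library (circles, library 1; squares, library 2). The 2 libraries of a mark lie within 1 unit of each other in each class, and H3K4me3 with both marks at starts stands highest at 15.0 and 14.5; folds of the 2 marks are not on a common scale.

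The knockout lists, which the classes did not use, were then read for the same regions. A peak of the same mark met 94.5% to 98.5% of the regions with both marks in the 4 knockout H3K27ac lists, and 95.2% to 97.2% in the 4 knockout H3K4me3 lists. H3K27ac-only regions met an H3K27ac peak in 72.0% and 65.6% of cases in KO1, and 76.7% and 75.9% in KO2. They met an H3K4me3 peak in 48.4% and 45.1% in KO1, and 54.3% and 42.8% in KO2. About as many were thus met by the mark they lacked in Control as were not. H3K4me3-only regions at gene starts met an H3K4me3 peak in 91.4% to 95.1% of cases, and those away from starts in 44.1% to 56.5%. At starts they met an H3K27ac peak in 17.7% and 17.0% of cases in KO1, and 53.3% and 54.4% in KO2. Away from starts this was 7.47% and 7.02% in KO1, and 25.8% and 24.0% in KO2. A peak anywhere in a region counted, and the median region was 1371 bp wide with both marks, 341 bp with H3K27ac only and 569 bp with H3K4me3 only. The H3K27ac lists held 40202 and 39041 peaks in KO1 and 65390 and 61374 in KO2. The part of region width and list length in these values was not tested.

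Genes were classed by the marks within 1 kb of the start, a mark being present where both libraries had a peak and absent where neither had. Of 21887 protein-coding genes, 6734 (30.8%) had both marks, 4955 (22.6%) H3K4me3 only, 2 (0.00914%) H3K27ac only and 8222 (37.6%) neither. The other 1974 (9.02%) were unsettled, and 1333 of these had H3K4me3 with H3K27ac in 1 library. At genes with both marks the median coverage was 16.3% and 16.7% for H3K27ac and 59.6% and 58.9% for H3K4me3. At genes with H3K4me3 only it was 21.7% and 21.2% for H3K4me3, so these genes had less of the mark they did carry. The 2 genes with H3K27ac only were Asb16 and Gsg1, with H3K27ac coverage of 5.75% and 11.8%, and of 6.20% and 5.10%. At equal list length this class held 41 genes, and 4 to 8 without 1 library.

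H3K27ac was commoner where H3K4me3 was broader. Of genes with H3K4me3, H3K27ac was present in both libraries at 6.20% where H3K4me3 covered up to 25% of the window, 44.0% from there to 50%, 85.8% to 75% and 95.5% above. Across 13022 genes with H3K4me3 the coverage of the 2 marks had a Spearman rho of 0.779 in the first and 0.784 in the second libraries. These are descriptions across genes, which are not independent, and both coverages share the window. H3K27ac at other sites went the same way. An H3K27ac region away from starts lay within 50 kb of 46.5% of genes with both marks, 26.0% with H3K4me3 only and 15.6% with neither.

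The 2 marks shared a dip at the start and differed in reach. At listed starts of genes with both marks, H3K27ac covered 36.9% and 39.1% of genes at 300 bp upstream, 17.9% and 21.0% at the start and 76.2% and 78.3% at 200 bp downstream. H3K4me3 covered 74.7% and 73.7%, 65.0% and 63.3%, and 96.8% and 96.5% at the same places, with its lowest point, 48.2% and 48.1%, at 100 bp upstream. For the same genes, the summit of the H3K27ac peak of lowest p within 2 kb lay a median of 153 and 151 bp downstream. That of the H3K4me3 peak of lowest p lay 287 and 289 bp downstream. H3K4me3 covered 84.7% and 83.8% of these genes at 1 kb downstream and 34.0% and 33.9% at 3 kb. H3K27ac covered 11.8% and 11.6% at 1 kb and 1.95% and 1.84% at 3 kb. At genes with H3K4me3 only, H3K4me3 covered 24.7% and 24.2% at 1 kb downstream and 3.25% and 3.20% at 3 kb. Upstream by 1 kb it covered 41.6% and 40.9% of genes with both marks and 6.07% and 5.71% of genes with H3K4me3 only.

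**Figure D3:**
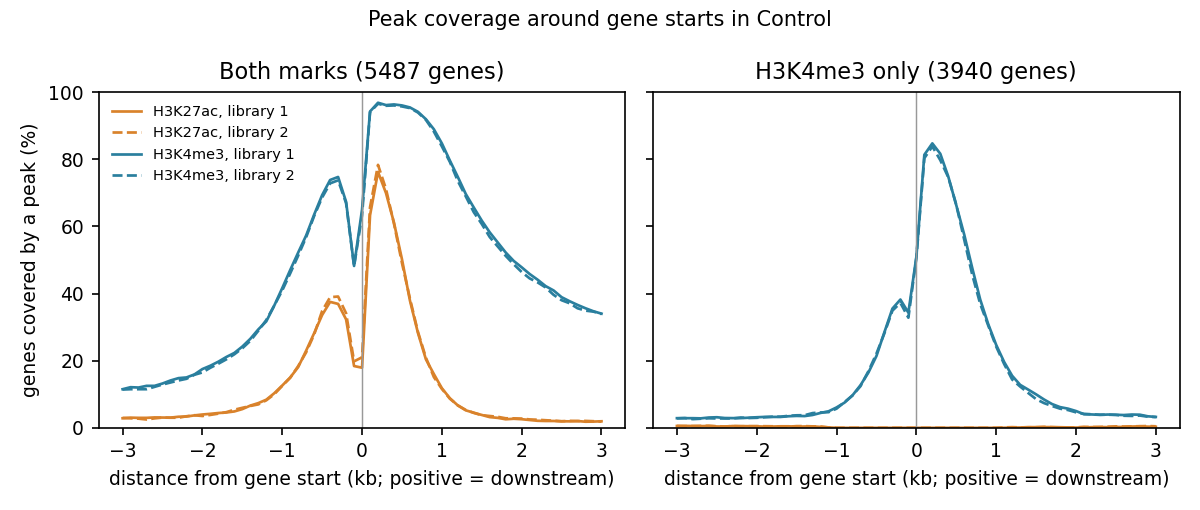
Percent of genes covered by a peak (y axis) at each distance from the gene start (x axis, kb, positive downstream) for genes with both marks (left) and with H3K4me3 only (right). Solid and dashed lines are libraries 1 and 2 of H3K27ac (orange) and H3K4me3 (blue). Both marks dip just upstream of the start, and H3K27ac, at 11.8% and 11.6% by 1 kb downstream, ends well before H3K4me3; its absence within 1 kb on the right follows from the class.

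CG content separated marked from unmarked starts more than it separated the 2 marked classes. In the 300 bases at listed starts, genes with both marks had a median of 24 CG dinucleotides, with H3K4me3 only 19, and with neither 3, against 14 over all 17492 genes. With at most 1 CG dinucleotide 97.5% of genes had neither mark, and with 30 to 59 this was 1.06%. Among genes with H3K4me3 the share with H3K27ac was 32.9% at 5 to 9 CG dinucleotides and 62.5% at 30 to 59. Below that range it was 33.2% of 271 genes at 2 to 4 and 45.5% of 44 genes at 0 to 1. Short motifs were searched on both strands; they can overlap one another. TATAAA, the core of a TATA box, was in 6.01% of promoters with both marks, 6.88% with H3K4me3 only and 24.5% with neither, against 13.2% of all. GGGCGG, the core of a GC box, was in 69.3%, 68.4% and 11.6%, against 46.9%. CCGGAAG, the core of ETS family sites, was in 24.6%, 10.1% and 2.33%, against 12%, the widest relative gap between the 2 marked classes of the 4 motifs. CCAAT was in 38.3%, 38.8% and 39.4%, against 38.8%. A match is a run of letters and shows no binding.

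**Figure D4:**
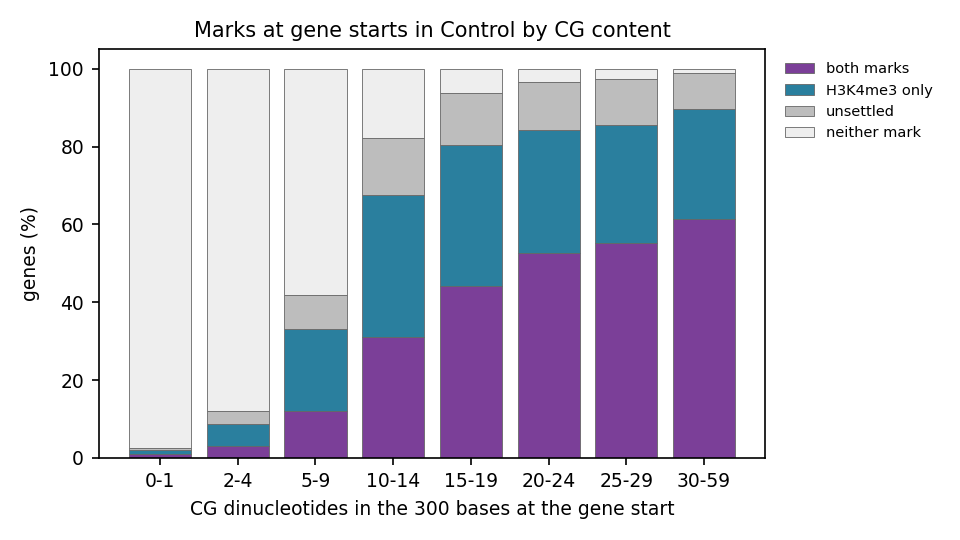
Percent of genes (y axis, stacked) with both marks, H3K4me3 only, unsettled or neither within 1 kb of the start, by the number of CG dinucleotides in the 300 bases at the start (x axis). The share with both marks reaches 61.4% in the bin of 30 to 59, and H3K4me3 only is at 36.5% for 10 to 14 and 28.2% for 30 to 59.

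Gene lists are described by their counts beside the shares of all genes given above, 30.8% with both marks, 22.6% with H3K4me3 only and 37.6% with neither. No test was made of a list. Of 36 naive pluripotency genes, 28 had both marks, 6 H3K4me3 only and 2 were unsettled. Sox2, a core pluripotency factor, had H3K27ac coverage of 86.8% and 82.3% and H3K4me3 coverage of 96.2% and 99.7%. At Nanog, another core factor, H3K27ac covered 56.9% and 69.2% and H3K4me3 100.0% in both libraries. Pou5f1 had values close to those of Sox2. In these 3 genes H3K4me3 coverage exceeded H3K27ac coverage in each pair of libraries, although both marks were broad. An H3K27ac region away from starts lay within 50 kb of 33 of the 36 genes (91.7%, against 28.9% of all genes), with a median of 4.5 per gene. Of these 196 regions, counted once for each gene, 180 also carried H3K4me3 and 7 had H3K27ac only. Over all protein-coding genes the same counts were 16608 and 946 of 19301, so there too most such regions carried both marks.

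Esrrb, a nuclear receptor of naive cells, had H3K4me3 coverage of 22.4% and 21.7% at its start and no H3K27ac peak in the window. Its 5′-most listed start had 0 in all 4 libraries, so its class depended on the start used. From the start used here, its nearest H3K27ac region (chr12:86463991-86465496) lay 42347 bp away and carried both marks, and 6 such regions lay within 50 kb. Other naive genes with H3K4me3 only, named after their values were seen, included Prdm14, Dppa3, Lin28a and Gbx2. The nearest H3K27ac region lay 30992, 16354, 1431 and 587244 bp from their starts in that order. Lin28a, with an H3K27ac region just beyond the 1 kb limit, was thus in this class by distance. Gbx2, a homeobox factor, had H3K4me3 coverage of 44.9% and 40.7% and H3K27ac coverage of 0.

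Of 17 formative and primed pluripotency genes, 5 had both marks, 10 H3K4me3 only and 2 were unsettled. Otx2, a transcription factor of the formative state, had H3K27ac coverage of 0 and 4.30% and H3K4me3 coverage of 13.3% and 24.4%. Fgf5, a growth factor of the same state, had 0 in both H3K27ac libraries, and H3K4me3 coverage of 11.1% and 12.9%. Dnmt3b, a DNA methyltransferase, had no H3K27ac either, with H3K4me3 coverage of 35.8% and 56.9%. Its relative Dnmt3a had both marks, with H3K27ac coverage of 4.95% and 5.65% and H3K4me3 coverage of 56.1% and 63.7%. At the 5′-most listed start of Dnmt3a H3K27ac coverage was 0 in both libraries and H3K4me3 coverage 56.9% and 35.9%. Its call of both marks, made at the start with the most coverage, thus did not hold at the 5′-most start. At the starts used, H3K27ac was thus absent from at least 1 library at 3 of these 4 genes and narrow at Dnmt3a.

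Of 80 developmental transcription factors, 1 had both marks, 53 (66.2%) H3K4me3 only, 18 neither, and 8 were unsettled. The single gene with both marks was Hoxd13, with H3K27ac coverage of 4.52% and 5.07% and H3K4me3 coverage of 20.8% in the higher library. The median coverage of the list was 16.7% and 16.4% for H3K4me3 and 0 for H3K27ac. Within the Hoxa cluster the genes differed: Hoxa5 and Hoxa13 had H3K4me3 only, while Hoxa2 had neither. The promoters of the list were CG-rich, with a median of 22 CG dinucleotides at the 55 listed starts, close to the 24 of genes with both marks. An H3K27ac region away from starts lay within 50 kb of 18 of the 80 genes (22.5%).

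Housekeeping lists carried both marks. Of 51 ribosomal protein genes, 50 had both marks and 1, Rpl8, H3K4me3 only, with an H3K27ac region in the wider window (coverage 19.7% and 22.1%). Rpl3 had H3K27ac coverage of 60.9% and 58.5% and H3K4me3 coverage of 67.6% and 64.6%, and Rpl4 48.5% and 61.5% and 100.0% in both. Of 30 other housekeeping genes, 26 had both marks, 1 H3K4me3 only, 1 neither and 2 were unsettled. At Gapdh, a glycolytic enzyme, H3K27ac covered 54.3% and 64.2% and H3K4me3 92.2% and 91.9%. B2m, the light chain of class I MHC, had H3K4me3 only, with coverage of 24.2% and 13.2%. Ywhaz had neither, but its start is not listed and its 2 gene ends were used. Of 17 glycolysis genes 12 had both marks, 3 H3K4me3 only and 2 were unsettled. Among the first 4, the transporters Slc2a1 and Slc2a3 and hexokinase Hk2 had both marks, and Hk1 had H3K4me3 only, with coverage of 40.2% and 49.1%, but 0 in all 4 libraries at its 5′-most listed start.

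Tissue and germline genes mostly had neither mark. Of 50 genes of differentiated tissues, 40 had neither, 6 H3K4me3 only, 3 were unsettled and 1, Apoa2, had both, with the start of another gene within 1 kb. Of 23 germline genes, 19 had neither and 4 H3K4me3 only. The RNA-binding protein genes Dazl and Ddx4 had 0 in all 4 libraries, and Sycp1, of the synaptonemal complex, had H3K4me3 coverage of 11.7% and 4.85%. All 24 olfactory and vomeronasal receptor genes had neither mark. Of the germline promoters 20 had a listed start, with a median of 19.5 CG dinucleotides, as many as genes with H3K4me3 only. The tissue promoters had a median of 4.

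Most genes of the m6A, histone enzyme and Polycomb lists carried both marks. Of 21 m6A genes, 19 had both and 2, Fto and Igf2bp2, were unsettled. Mettl3, the catalytic subunit of the m6A writer, had H3K27ac coverage of 18.7% and 22.2% and H3K4me3 coverage of 65.4% and 64.2% in these Control cells. Its partner Mettl14 had narrower H3K27ac, 4.25% and 4.10%, with H3K4me3 coverage of 56.8% and 62.3%. Wtap, a cofactor of the writer, had H3K27ac coverage of 51.9% and 51.6%. Of 29 genes listed under histone acetylation, H3K4 methylation and related enzymes, 25 had both marks, 2 (Hdac3 and Kdm6b) H3K4me3 only, and 2 were unsettled. Ep300 had H3K27ac coverage of 44.8% and 47.4%, and its relative Crebbp 4.32% and 12.9%. Of 24 Polycomb genes, 17 had both marks and 7 H3K4me3 only. Ezh2, the methyltransferase subunit known in dividing cells, had H3K27ac coverage of 38.8% and 32.7%. Its relative Ezh1 had none, with H3K4me3 coverage of 34.3% and 24.3%.

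**Figure D5:**
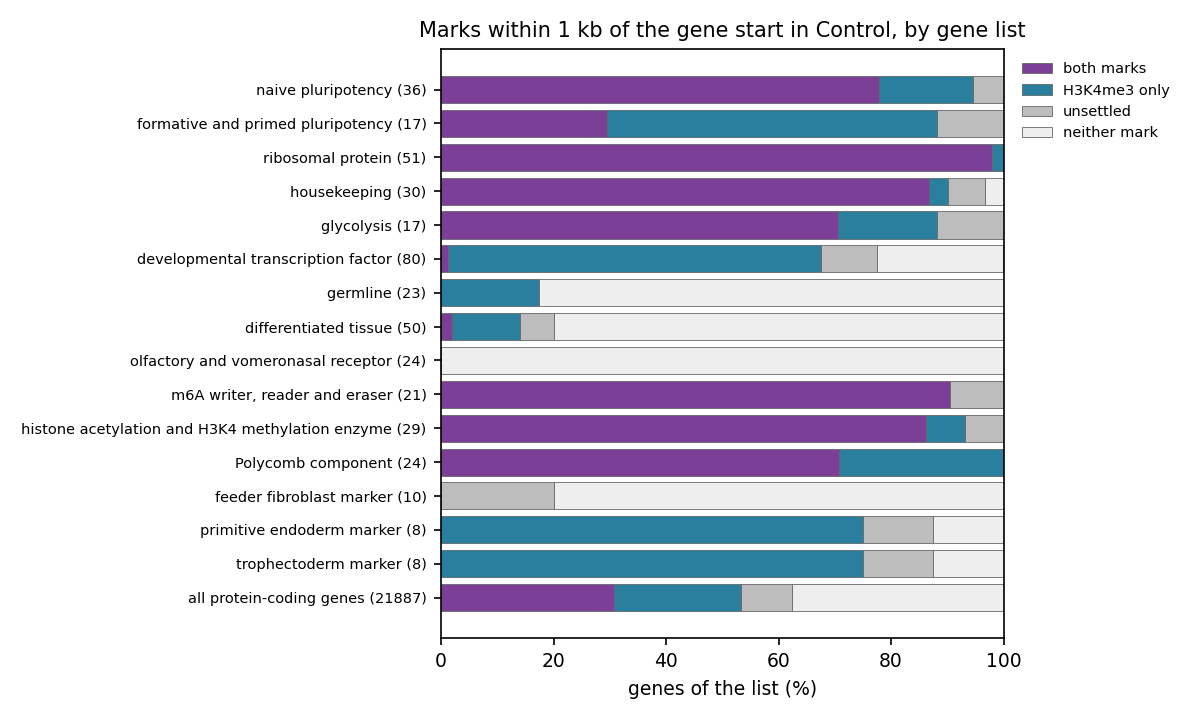
Percent of the genes of each list (x axis, stacked) with both marks, H3K4me3 only, unsettled or neither within 1 kb of the start in Control; the number of genes stands beside each name. Ribosomal protein genes (50 of 51) have both marks, developmental transcription factors mainly H3K4me3 only (53 of 80), and receptor genes neither (24 of 24).

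Covered length was also tested gene by gene, as coverage in each of the 4 libraries, with limma and a Benjamini-Hochberg adjusted p of 0.05. H3K27ac was above H3K4me3 at 8 of 13340 genes tested (0.06%) and below it at 12944 (97.0%), with a median difference of −31.7 percentage points. This direction is that of the lists as a whole, with 58.2 and 56.3 Mb in H3K4me3 peaks and 14.4 and 14.6 Mb in H3K27ac peaks. The start tested was also chosen by coverage summed over these same lists, so the choice leans to candidates with much H3K4me3. After quantile normalization of the libraries, 2766 genes (20.7%) were above and 1936 (14.5%) below. That scaling gives all genes without H3K27ac 1 common value above 0, so single values under it are not read here. Of the naive list 33 of 36 genes were lower and 0 higher, and of the developmental list 58 of 63 tested were lower and 0 higher, shares no higher than the 97.0% of all genes.

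Both histone genes among the 8 higher genes had both marks. H2ac4 had H3K27ac coverage of 60.3% and 57.0% against H3K4me3 coverage of 38.0% and 42.2%. The difference was 18.48 ± 2.92 percentage points (SE, limma adjusted p = 0.00432), and the libraries of the 2 marks did not overlap. At H4c6 H3K27ac covered 64.0% and 70.7% and H3K4me3 58.7% and 51.9%. Its difference of 12.03 ± 4.04 points (limma adjusted p = 0.0440) turned to −1.42 points in a window of 1 kb on each side. Histone genes have near-identical copies, among which short reads can be split. Csn1s2a, a casein gene, had H3K27ac coverage of 10.9% and 14.1% and no H3K4me3 peak in the window, with no mark within 1 kb. Asb16, described above, Emc2, Parp14 and Krtap5-5 differed by 8.80, 9.20, 7.22 and 4.57 points. The eighth gene was Gm1966, a predicted gene, at 13.36 points. Of these, Emc2 and Parp14 have no listed start. H2ac4 passed the threshold in each fit without 1 library. H4c6, Csn1s2a, Asb16, Emc2, Parp14 and Krtap5-5 each missed it in at least 2 such fits, with limma adjusted p from 0.0535 to 0.246: Csn1s2a without either H3K4me3 library, Parp14 and Krtap5-5 without either H3K27ac library, Emc2 without either H3K27ac or the second H3K4me3 library, and Asb16 and H4c6 without either H3K4me3 or the second H3K27ac library.

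At the other end were starts in or beside broad H3K4me3 domains. Rbm25, an RNA-binding splicing factor, had H3K4me3 over 100.0% of the window in both libraries and no H3K27ac in it, a difference of −100.0 ± 2.21 points (limma adjusted p = 0.000392). Its values were identical in both libraries of each mark, so this SE and p rest on the spread that limma pools over genes. The start of Rbm25 lay in a 12650 bp region with both marks (chr12:83632195-83644844), whose H3K27ac lay 2268 bp away. Luc7l2, a splicing factor, had H3K4me3 coverage of 100.0% and 97.9% and lay in an 8408 bp region with H3K27ac 2681 bp away. Slc23a1 and Ipo5 were alike, with no H3K27ac in the window and H3K27ac 4503 and 3752 bp away inside the same region. Katnal2 had no H3K27ac in the window either, its nearest H3K27ac lay 3822 bp away, and its start lay just outside that region with both marks. Ipo5 has a listed start further upstream, with H3K27ac coverage of 23.2% and 33.5%, so its value depended on the start used. Atf6 had H3K27ac in 1 library (11.2%). Slc23a1, Katnal2 and Atf6 have no listed start, so the gene end with more coverage stood in for it and may not be a promoter. Kdm2b, which brings a variant Polycomb complex to CG-rich DNA, had both marks at the start, with H3K27ac coverage of 15.1% and 5.37% against 99.1% and 100.0%. Ubl5, a ubiquitin-like protein, had 11.3% and 6.62% against 100.0% and 93.7%.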

How the data were processed

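Per the submitters' processing notes, reads were processed with CASAVA, Trimmomatic 0.38, Bowtie 1.2.2 and MACS2 (version not given in the sources used here) on build mm10. Whether input or spike-in reads entered the peak calling is not given there either. The authors called peaks on each library separately. The deposited lists give for each peak the authors' fold enrichment (a ratio), the authors' −log10 p and −log10 q, and a score, which was not used. Folds and p-values were used only within a list. Sequencing depth is unknown.

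The genome tables are RefSeq on GRCm38.p6, the assembly of mm10. Of 21887 protein-coding genes, 17492 have a listed start with strand; for the other 4395 both gene ends were candidates. Where a gene had several candidates, its class and coverage are those of the one with the most peak coverage over the 4 Control lists, which favours marked starts. For genes with no listed start, the plan had named H3K4me3 alone for the choice between gene ends. A region was at a start if within 1 kb of any candidate. The 50 Control peaks on unplaced scaffolds were left out. Intervals on shares are 95% Wilson intervals of counting error. The limma fit (limma 3.58.1, R 4.3.3, lmFit, and eBayes with a trend) took genes with mean coverage of at least 5% in either mark and was 2-sided. It was tried on simulated data with normal noise of equal spread for all genes. Real coverages are bounded and often identical in both libraries of a mark, so that trial does not show how the fit behaves on them. With 2 libraries a mark, an exact test of a single value cannot go below p = 0.333. The limma p-values rest on the spread between libraries, pooled in part over genes, and this spread may be technical.

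Members and lists were chosen with earlier results of these data known. In full were printed the first 4 genes of a list, the 8 largest limma differences in each direction with libraries that did not overlap (symbols starting with Gm or ending with Rik left out), and, of each class, the 4 regions of highest mean p rank and the 2 widest. Others were named after their values were seen. Some items that the rule names are not reported here.

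Replicate numbers are shared by the marks, but same-numbered libraries did not deviate together (correlation 0.041 over genes, 2 pairs), so the fit has no replicate block.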

Additional observations from a re-analysis of the deposited data

How the results depend on the processing

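The shares and the small counts depended on the peaks used. Values stand in the order H3K27ac-only regions, H3K4me3-only regions, share of H3K27ac regions with H3K4me3, and share of H3K4me3 regions with H3K27ac. With lists of equal length they were 3930, 8104, 70.4% and 51.7%. With peaks within 1 kb merged they were 276, 11345, 93.1% and 43.2%. With a peak in either replicate enough they were 5122, 66678, 86.3% and 28.0%, with 24296 regions of both marks. Judged on shared regions alone, 2168 regions had H3K27ac only. An overlap of 50% of the shorter interval gave an H3K27ac share of 88.7%, and a −log10 q of at least 5 gave an H3K4me3 share of 33.5%. Leaving out 1 library at a time gave 1369 to 3690, 30959 to 57800, 80.1% to 93.6% and 22.6% to 38.3%, the low H3K27ac shares without an H3K27ac library and the low H3K4me3 shares without an H3K4me3 library. Genes with H3K27ac only numbered 41 at equal length, 4 at the stricter q, 14 with either replicate and 4 to 8 without 1 library. Other counts of classes stayed within 1.5 times of the value given.

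In the limma comparison 35 genes were higher at equal length, 13 at the stricter q and 6 to 11 without 1 library, where the lone library of a mark is assumed to vary like the other mark. With the replicate block 14 were higher, no longer among them Krtap5-5; with quantile normalization 2766 were higher and 1936 lower, and with both 2603 and 1714. The sign of H4c6 turned to −1.42 in the window of 1 kb. The other 14 named genes kept their sign in the alternatives that gave them a value; the window of 1 kb gave none for Csn1s2a, Emc2 and Krtap5-5, and the 5′-most start none for genes without a listed start. Besides that value of H4c6, 20 fits of H4c6 and 5 other higher genes missed the threshold. The 5′-most start (also for gene classes), chromosome 8 left out and quantile normalization with the block were added after seeing the data. The causes were not tested.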
